A study of Mus musculus with 9 samples.

Results

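Cultured neurons from the mouse cortex on embryonic day 16 were compared with cultured cortical precursors from embryonic day 13, using 6 of the 9 arrays of the study, 3 for each culture. The members were chosen by array title alone. All cells came from wild-type CD1 mice. The neurons had been kept for 5 days in total and the precursors for 1 day; another field of the labels has 4 days in place of the neurons' total. The study itself concerned growth factor signals between these cell types, and its other 3 arrays held precursors grown on neurons. The arrays were labelled as biological replicates. Embryonic day, time in culture and cell type changed together between the groups, so their parts in any difference below cannot be told apart. Genes of the cell cycle, histone genes and genes of synapses and excitability were set aside, and the account is of other functions.

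Cortical precursors are radial cells that divide at the ventricle of the embryonic brain and give rise first to neurons and later to glia. A cell that leaves division stops making new DNA, alters its chromatin and extends processes, and it takes on the receptors and second messengers by which neurons respond to transmitters. In bulk RNA, a lower level can mean fewer cells of a type or less RNA per cell, and arrays cannot separate these.

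Levels are log2 values, so a difference of 1 is a 2-fold change, and each difference is neurons minus precursors with its standard error from a limma model. A gene was called where its Benjamini-Hochberg adjusted p was under 0.05. Arrays of neurons correlated with each other at 0.988 to 0.993 and arrays of precursors at 0.990 to 0.993, against 0.964 to 0.969 between the cultures. The median SD of a gene over 3 arrays was 0.0832 in neurons and 0.0657 in precursors. Of 13012 tested genes, 3637 (28.0%) were higher in neurons and 4574 (35.2%) were lower, 63.1% in all. At least 2-fold, 715 genes (5.49%) were higher and 624 (4.80%) were lower. The median difference over all tested genes was -0.02. The usual cell cycle list, with 196 of 199 tested genes lower, and the usual synapse list, with 116 of 135 higher, are not described further. All 3 neuron arrays lay above all 3 precursor arrays for 29.5% of genes and below them for 36.9%.

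The labels were checked against cell type markers. All 13 tested precursor markers were lower in neurons, with a summed linear level of 10950 to 12566 in neurons and 23265 to 24579 in precursors. The largest fall among them, -3.08, is also the largest of the usual cell cycle list. That list was not taken out of the markers, so this check draws in part on cell division. Pax6, a transcription factor of radial precursors, read 6.75, 6.89 and 7.32 in neurons and 8.94, 9.08 and 9.02 in precursors. Sox2, Nes and Hes5, which mark the same cells, differed by -1.95, -1.81 and -0.88. Of 11 tested neuron markers 9 were higher, and the summed level of all 12 on the array was 35730 to 36840 against 23260 to 23455. Sums here and below take in every member on the array, tested or not. Stmn2, a microtubule regulator of growing axons, read 12.86, 12.83 and 12.86 in neurons and 12, 12.02 and 12.04 in precursors. Map2 and Dcx, microtubule proteins of neurons, differed by 0.32 and 0.30. Tubb3, the neuronal beta tubulin, read 11.95, 11.96 and 11.95 in neurons and 12.02, 11.93 and 11.94 in precursors and was not called (-0.01 ± 0.042, adjusted p = 0.88). Its RNA was thus plentiful in the precursor cultures as well.

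Markers of other cells were mostly dim, apart from those of GABAergic interneurons. Of 6 tested astrocyte markers 3 were higher and 2 lower, and Gfap, Aqp4, S100b and Gjb6 lay below the level needed for testing. The summed level of all 10 was 1786 to 1959 in neurons and 2805 to 3017 in precursors. Of 5 oligodendrocyte lineage markers 0 were higher and 1 was lower. Microglia and macrophage markers had 7 of 15 tested members, of which 1 was higher and 2 were lower. Sums over all 15 were 1685 to 1841 and 1837 to 2009. The defining genes Csf1r, P2ry12, Tmem119, Itgam and Ptprc were too dim to test. All 4 tested endothelial markers were lower, led by Cdh5 at -1.21. Sums over all 12 on the array were 851 to 904 and 1177 to 1236. Of 5 pericyte markers 2 were lower and 0 higher, and none of 6 meningeal fibroblast markers was called. The single tested erythroid marker, the embryonic globin Hbb-y, differed by -1.30. GABAergic interneuron markers were bright and split, with 5 of 9 higher and 4 lower. Their sums were 10095 to 10627 in neurons and 6369 to 8720 in precursors. Sst, a peptide of cortical interneurons, differed by 1.40, and Dlx2, a factor of their precursors, by -0.80. Of 6 Cajal-Retzius markers 1 was higher (Ndnf, 1.21) and 3 were lower (Ebf3 -1.30). Of 4 choroid plexus markers 1 was higher (Sostdc1, 0.80) and 1 was lower (Otx2, -0.89).

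Once those usual genes were set aside, the 15 largest rises in neurons ran from 3.49 for Npy1r to 2.77 for Trank1. Npy1r, the Y1 receptor for neuropeptide Y, read 9.38, 9.52 and 9.45 in neurons and 5.94, 5.94 and 5.99 in precursors (difference 3.49 ± 0.048, a 11.2-fold change; limma adjusted p = 1.73e-10). Rgs4, which shortens G protein signals, read 10.23, 10.11 and 10.14 in neurons and 6.79, 7.30 and 6.80 in precursors, a difference of 3.20 ± 0.12. Slc7a8, a carrier of large neutral amino acids, read 10.59, 10.54 and 10.44 in neurons and 7.17, 7.42 and 7.48 in precursors, a difference of 3.17 ± 0.081. In each of these 3 genes the lowest neuron array stood more than 2 log2 units above the highest precursor array. The precursor arrays of Npy1r lay below the array medians of 6.75 to 6.79, so Npy1r was tested only because other groups were brighter.

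Among the other 12, Shisa9, an auxiliary protein of AMPA receptors (3.12), Kcnk9, a leak potassium channel (2.90), Trpc5, a cation channel (2.85), and Gnal, the alpha subunit of an olfactory-type stimulatory G protein (2.89), were all higher in every neuron array. Nr4a3 and Npas4 are early-response transcription factors that neuronal activity induces. Nr4a3 read 11.49, 11.34 and 11.43 in neurons and 8.18, 8.54 and 8.43 in precursors, and Npas4 read 10.28, 10.30 and 10.48 in neurons and 7.29, 7.46 and 7.33 in precursors. The groups lay far apart for both, with differences of 3.04 and 2.99. The remaining members were Gucy1a1 (3.04), Plppr5 (3.03), Rasgrf2 (2.98), the L1-family adhesion molecule Chl1 (2.96), the Src-like adaptor Sla (2.88) and Trank1 (2.77). The next gene by size, just outside the 15, was Mal2 at 2.73.

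The largest falls were of a different make-up. Ccl3, a chemokine released by activated myeloid cells, read 6.76, 6.64 and 6.19 in neurons and 10.58, 10.57 and 10.74 in precursors (difference -4.10 ± 0.13, 17.1-fold; adjusted p = 5.88e-09). Slc7a11, the exchanger that brings in cystine for glutathione, read 6.14, 6.85 and 6.16 in neurons and 10.12, 10.22 and 10.02 in precursors (-3.74 ± 0.17). Nhlh1, a basic helix-loop-helix factor of newborn neurons, read 6.14, 5.74 and 6.02 in neurons and 9.15, 9.66 and 9.39 in precursors (-3.43 ± 0.16). All 3 genes were near the dim end of the scale in neurons, where folds can be understated. The neuron arrays of Nhlh1 all lay below the array medians, so Nhlh1 was tested only because other groups were brighter.

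Chromatin and patterning regulators were among the rest. Chd7, a chromatin remodeller, read 6.86, 6.92 and 6.95 in neurons and 9.65, 9.83 and 9.79 in precursors (-2.85 ± 0.055). Gli3 (-2.82), the main transcription factor of hedgehog signalling in the cortex, Barhl2 (-2.80), a homeobox factor, and Tead2 (-2.56), a DNA-binding partner of YAP, were lower in every neuron array. Mdk, the secreted growth factor midkine, differed by -2.64, the redox protein Nxn by -2.49 and Arhgap19 by -2.55. Pclaf (-2.55), which binds the replication clamp, and Rbl1 (-2.49), a retinoblastoma relative, stand close to the cell cycle although they were outside the list set aside. The sixteenth gene, Mms22l, differed by -2.47, as did the fifteenth, Acod1.

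Together with Ccl3, 3 more of the 15 are known chiefly from cells of the myeloid line. Il1a, a cytokine, read 5.18, 5.49 and 5.29 in neurons and 8.03, 7.82 and 8.15 in precursors. Acod1, which makes itaconate in activated macrophages, read 6.37, 6.14 and 6.54 in neurons and 8.86, 8.67 and 8.94 in precursors. Lilrb4a, an inhibitory receptor, read 5.53, 6.49 and 5.86 in neurons and 8.54, 8.52 and 8.60 in precursors. The neuron arrays of Il1a, Acod1 and Lilrb4a all lay below the array medians, so these genes were tested only because other groups were brighter. Their differences were -2.68, -2.47 and -2.59. The microglia and macrophage markers given above summed to 1685 to 1841 in neurons and 1837 to 2009 in precursors. Of those 15 markers 8 were too dim to test, so the sums take in background and cannot show how many such cells were present. The part of those cells in the 4 falls was not tested.

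**Figure D1:**
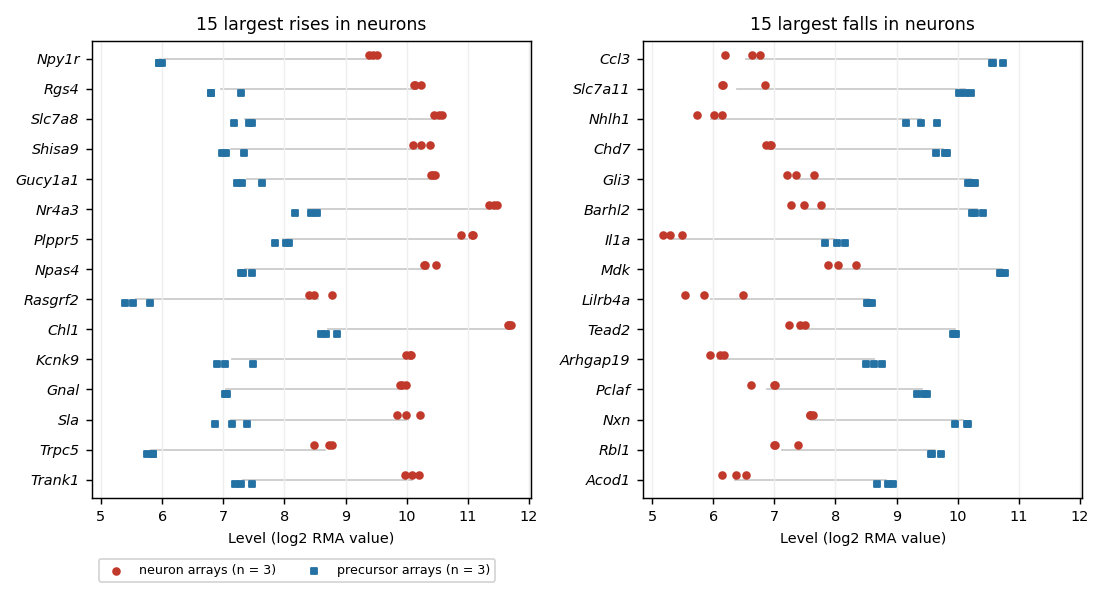
Levels (log2 RMA values, horizontal axis) of the 15 genes with the largest rise (left) and the 15 with the largest fall (right), with 1 circle per neuron array and 1 square per precursor array. No gene has overlapping groups, which the choice of genes required; Npy1r rises by 3.49 and Ccl3 differs by -4.10.

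Function was described through 37 gene lists, which together held 969 tested entries. The mean level of a list's members was higher in every neuron array than in every precursor array for 15 lists, lower for 17 and overlapping for 5. Each list's counts stand beside 28.0% higher and 35.2% lower over all tested genes. The making of ribosomes and proteins was among the lower functions. Of 43 tested genes of ribosome biogenesis, 36 were lower in neurons, 1 was higher and 6 were not called, with a median difference of -0.48 against -0.02 over all genes. Dkc1, the enzyme of RNA pseudouridylation that is also part of telomerase, read 7.87, 8.13 and 7.91 in neurons and 9.09, 9.0 and 9.03 in precursors (-1.07 ± 0.067). The helicase Ddx18 differed by -1.14, and Heatr1, a factor of ribosomal RNA transcription and processing, by -0.97. Mybbp1a (-0.91), Emg1 (-0.90) and Taf1d (-0.82), all nucleolar or RNA polymerase I factors, followed. Nop16 lay at -0.01 and was not called. The single higher gene, Nop10 (0.19), lost its call without neuron replicate 1 or 3 or precursor replicate 1 or 2.

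Translation factors followed, with 28 of 37 lower, 4 higher, 5 not called and a median of -0.32. Eif4ebp1, the repressor of cap-dependent initiation that the mTOR kinase inactivates, read 9.01, 9.30 and 8.61 in neurons and 10.77, 10.78 and 10.81 in precursors and fell most (-1.81 ± 0.14). Initiation and termination factors fell too, among them Eif3c (-0.82) and Etf1 (-0.79). Eef1a2, the elongation factor isoform of neurons and muscle, went the other way, from 8.44, 8.45 and 8.52 in precursors to 9.79, 9.88 and 9.76 in neurons. Its widespread counterpart Eef1a1 differed by -0.24. Eif4a2 lay at -0.01 and was not called.

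Small nucleolar RNAs guide the chemical modification of ribosomal RNA, and small Cajal body RNAs do the same for spliceosomal RNA. Of 60 such RNAs tested, 50 were lower in neurons, 1 was higher and 9 were not called, with a median of -0.93. Of the 60, 7 had all neuron arrays below the array median and were tested only because they were brighter in precursors or co-cultures. None had all precursor arrays below it. With no filter, 54 of all 79 were lower and 1 was higher, with a median of -0.75. The 19 untested RNAs had a median of -0.34. The single higher RNA, Snord88c (0.33), lost its call without precursor replicate 3. Among the H/ACA type 19 of 22 were lower, with a median of -1.21, among the C/D type 25 of 32 with a median of -0.74, and all 5 Cajal body RNAs were lower. Snora75 read 8.59, 8.62 and 8.10 in neurons and 10.57, 10.66 and 10.61 in precursors (-2.17 ± 0.14). Snord13, a C/D RNA that acts in acetylation of ribosomal RNA, had the largest fall (-2.91 ± 0.26), but its arrays were spread from 7.40 to 8.50 in neurons. Rnu3a, a U3 RNA needed to cut the ribosomal RNA precursor, read 6.64, 7.0 and 6.58 in neurons and 8.47, 8.77 and 8.73 in precursors. Terc, the RNA template of telomerase and itself an H/ACA RNA, read 9.55, 9.71 and 9.50 in neurons and 11.70, 11.75 and 11.76 in precursors (-2.15 ± 0.063).

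Most of these RNAs are cut from introns. Of the 50 that were lower, 37 lay within the span of a tested gene. That gene was also lower for 26 of the 37, not called for 10 and higher for 1. Strand was not checked, so an overlapping gene need not be the host. Of the 4 core proteins that bind H/ACA RNAs, Dkc1, Nhp2 (-0.60) and Gar1 (-0.51) fell, and Nop10 was the higher gene given above (0.19). The C/D partners Nop58 (-0.78) and Nop56 (-0.47) fell. The array values of small RNA genes can include the longer precursor or host transcript, so they are not levels of the mature RNA.

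The same holds for microRNAs, where a probe set reads the hairpin gene. Of 175 tested hairpins 64 were higher in neurons and 29 were lower, and 19 were lower without precursor replicate 2. Hairpins of one stretch of chromosome 12 were described apart. Between Dlk1 and Dio3, an imprinted domain whose maternal copy makes long noncoding RNAs and many microRNAs, 30 hairpins were tested, 27 were higher, 0 were lower and the median was 0.77. Elsewhere 37 of 145 were higher and 29 were lower, with a median of 0.08. Of the 30, 5 had all precursor arrays below the array median and were tested only because they were brighter in neurons or co-cultures. The same held for 9 of the 145 elsewhere, and 3 of the 145 had all neuron arrays below the array median. With no filter on low values, 35 of all 43 hairpins of the domain were higher and 0 lower, with a median of 0.77, against 67 higher and 32 lower of 435 elsewhere, with a median of 0.05. The median of the domain was computed over hairpins that share precursor transcripts, so they are not independent of each other. These hairpins were picked out after their values were seen.

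Mature sequences, from RefSeq with GRCm38.p6, were found for 152 of the 175 hairpins. Shown here are 4 of the domain's hairpins with the largest rise, miR-128, a microRNA abundant in brain neurons and made from 2 hairpins, miR-218, and let-7c, whose family rises as embryonic cells mature. Capitals mark the seed, bases 2 to 8, by which a microRNA recognises its targets. One mature strand is printed for each.
mmu-miR-380-3p: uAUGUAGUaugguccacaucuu
mmu-miR-323-3p: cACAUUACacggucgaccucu
mmu-miR-493-3p: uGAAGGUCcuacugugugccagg
mmu-miR-341-3p: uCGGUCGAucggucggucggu
mmu-miR-128-3p: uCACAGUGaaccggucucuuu
mmu-miR-218-5p: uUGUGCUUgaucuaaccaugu
mmu-let-7c-5p: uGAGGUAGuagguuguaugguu

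The 4 hairpins of the domain have different seeds. Mir380 read 7.89, 8.49 and 8.26 in neurons and 6.49, 6.54 and 6.66 in precursors (1.65 ± 0.15), and Mir323 read 6.99, 7.60 and 7.36 in neurons and 5.80, 5.86 and 5.78 in precursors (1.50 ± 0.13). Their precursor arrays lay below the array medians of 6.75 to 6.79, so both are among the 5 tested only because other groups were brighter. Mir493 and Mir341 differed by 1.42 and 1.29, and Mir341 read 10.90, 10.86 and 11.03 in neurons and 9.61, 9.66 and 9.63 in precursors. The groups did not overlap for any of them. The long noncoding RNAs of the domain, Meg3 and Rian, rose by less, 0.48 ± 0.059 and 0.46 ± 0.058. Dlk1, the Notch-related protein at its edge that is made from the paternal copy, fell by 0.91, and Dio3 was too dim to test. The 3 domain hairpins that were not called, Mir666, Mir673 and Mir494, lay at 0.09, 0.10 and 0.21.

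The seed CACAGUG of miR-128 is made from a pair of hairpins on different chromosomes. Mir128-2 read 7.44, 7.70 and 7.49 in neurons and 5.71, 5.39 and 5.56 in precursors (1.99 ± 0.091), and its host gene Arpp21 differed by 1.48. Mir128-1 read 7.49, 7.83 and 7.46 in neurons and 6.18, 6.38 and 6.56 in precursors (1.22 ± 0.11), and its host R3hdm1 differed by 0.56. The precursor arrays of both miR-128 hairpins lay below the array median too, so both were tested only because they were brighter in neurons or co-cultures. Mir218-1 rose by 1.49 and its host Slit2, a secreted guidance protein, by 0.72. Of 24 higher hairpins within the span of a tested gene, that gene was higher for 16, lower for 4 and not called for 4. Strand was not checked here either, so these counts are of overlapping genes and not of known hosts. Mir138-2 was among the opposed pairs: it differed by 0.85 while the nucleoporin Nup93 differed by -0.76. Mir763, which lies within Hmga2, fell by 1.33 as Hmga2 fell by 2.44.

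**Figure D2:**
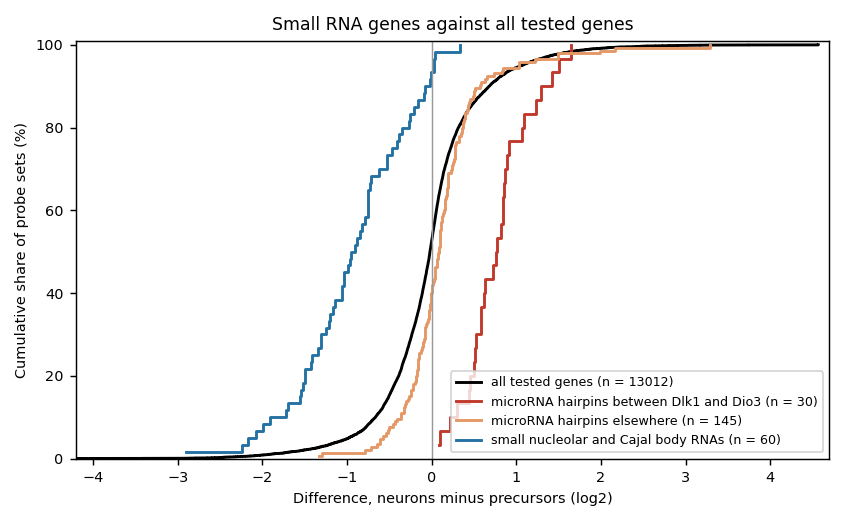
Cumulative share of probe sets (percent, vertical axis) at or below each difference, neurons minus precursors on the log2 scale (horizontal axis), for all 13012 tested genes, 30 microRNA hairpins between Dlk1 and Dio3, 145 hairpins elsewhere and 60 small nucleolar and Cajal body RNAs. The median is 0.77 for the first set of hairpins and -0.93 for the small nucleolar and Cajal body RNAs.

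A developmental timing circuit runs through let-7. Lin28 proteins block let-7, and let-7 represses Hmga2 and Igf2bp genes, whose products keep precursors young. Of 18 tested genes of microRNA processing and this circuit, 12 were lower in neurons, 0 were higher and 6 were not called, with a median of -0.28. Hmga2, a chromatin protein of young precursors, read 7.36, 7.52 and 7.44 in neurons and 9.87, 9.85 and 9.90 in precursors (-2.44 ± 0.056, 5.41-fold; adjusted p = 1.4e-09). Igf2bp3, an RNA-binding protein, differed by -1.68 ± 0.074. Lin28b was near the array median and differed by -0.29, and Lin28a and Trim71 were not called (0.04 and 0.14). The hairpin of let-7c, shown above, differed by 0.58 ± 0.10, that of let-7a-2 by 0.57 ± 0.14, and those of let-7a-1 and let-7e were not called (0.11 and 0.13). Processing enzymes fell by less: Xpo5, which exports hairpins, by 0.70, Dicer1 by 0.51 and Ago1 by 0.46, while Ago3 lay at 0.02.

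Polycomb proteins and DNA methylation keep lineage genes silent. Of 28 tested members 18 were lower in neurons, 2 were higher and 8 were not called, with a median of -0.27, and under cyclic loess scaling 4 were higher. Ezh2, the methyltransferase of Polycomb complex PRC2, read 10.03, 10.10 and 10.09 in neurons and 11.15, 11.16 and 11.23 in precursors. Its relative Ezh1, typical of cells that no longer divide, read 8.07, 8.11 and 8.14 in neurons and 7.37, 7.33 and 7.45 in precursors. Neither gene's groups overlapped, and the differences were -1.10 ± 0.046 and 0.72 ± 0.061. Uhrf1 (-2.03) and Dnmt1 (-0.96), which copy DNA methylation at replication, fell, as did the PRC2 subunit Eed (-0.72), whereas Jarid2 lay at 0.00.

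Histone deacetylases and demethylases were mixed, with 17 of 29 lower, 5 higher, 7 not called and a median of -0.22. Hdac9, a class IIa deacetylase, read 10.16, 10.11 and 10.01 in neurons and 7.63, 7.70 and 7.62 in precursors and was the largest change of the list (2.44 ± 0.049). Hdac1, a class I enzyme, read 8.57, 8.50 and 8.14 in neurons and 9.57, 9.50 and 9.70 in precursors (-1.19 ± 0.10). The demethylases Kdm7a (-1.21), Kdm3a (-0.87) and Kdm5a (-0.77) fell, and Hdac11 rose by 0.60.

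The nuclear envelope changed with chromatin. Of 34 tested genes of the lamina, the nuclear pore and transport through it, 24 were lower, 4 were higher and 6 were not called, with a median of -0.47. Lmnb1, the B-type lamin, differed by -1.52 ± 0.069, and the lamina-associated protein Tmpo by -1.87 ± 0.047. Pore subunits Nup43 (-1.10), Nup107 (-0.94) and Nup155 (-0.93) fell. Syne1, a nesprin that ties the nucleus to the cytoskeleton, was the highest, at 0.75. Emd, emerin, lay at -0.01.

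**Figure D3:**
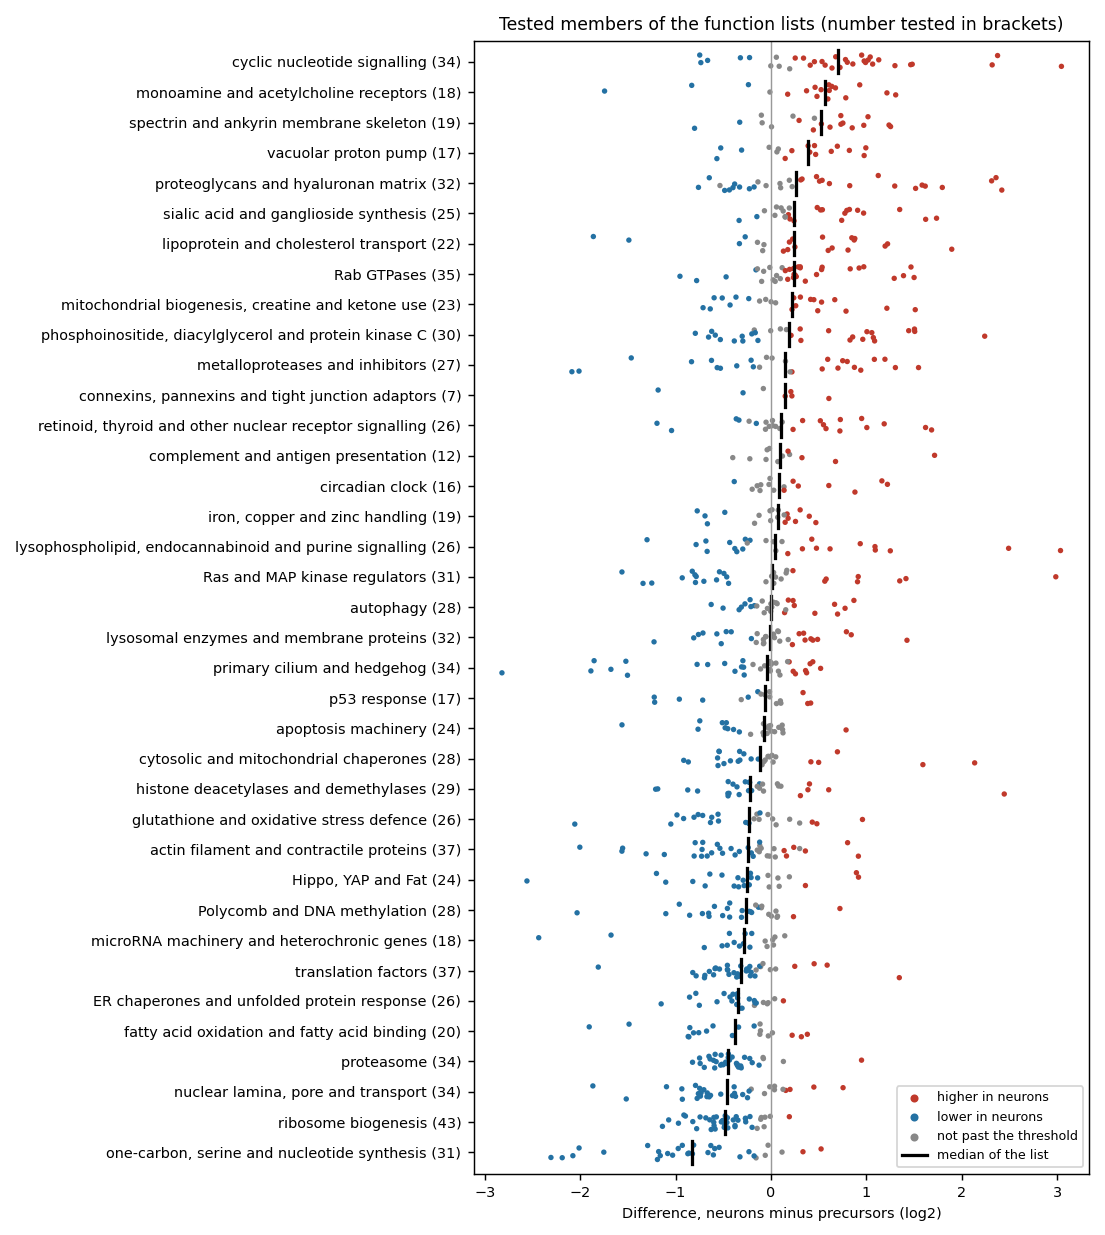
Difference, neurons minus precursors on the log2 scale (horizontal axis), for every tested member of 37 function lists, 1 point per gene, red where higher, blue where lower and grey where not past the threshold, with a bar at each list's median. Medians run from -0.82 for one-carbon, serine and nucleotide synthesis to 0.70 for cyclic nucleotide signalling.

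Metabolism was led by one-carbon, serine and nucleotide synthesis, which supplies the bases for DNA and RNA. Its median of -0.82 was the lowest of the 37 lists, with 25 of 31 tested genes lower, 2 higher and 4 not called. Without precursor replicate 2 or 3, 1 was higher. Shmt2, which makes one-carbon units from serine in mitochondria, read 9.54, 9.55 and 9.38 in neurons and 11.67, 11.71 and 11.66 in precursors (-2.19 ± 0.051, 4.56-fold). Gldc, the glycine cleavage enzyme, read 7.47, 7.38 and 7.29 in neurons and 9.44, 9.40 and 9.33 in precursors (-2.01 ± 0.063). Beside the ribonucleotide reductase genes Rrm2 (-2.31) and Rrm1 (-2.08) and thymidylate synthase Tyms (-1.75), which serve DNA synthesis, the cytosolic enzyme Shmt1 differed by -1.29. Prps1, which makes the sugar phosphate on which bases are built, lay at -0.03.

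Defence against oxidation also read lower, with 15 of 26 genes lower, 3 higher, 8 not called and a median of -0.23. Nfe2l2, or NRF2, the transcription factor of this response, read 7.80, 7.93 and 7.03 in neurons and 9.63, 9.61 and 9.69 in precursors (-2.06 ± 0.19). Neuron replicate 3 stood apart from the other two neuron arrays there, and all 3 lay below the precursors. Gpx8 (-1.05), Txnrd1, thioredoxin reductase (-0.99), Hmox1, haem oxygenase (-0.92), and Gsta4 (-0.81) fell, Mgst3 rose by 0.96, and Sod1 lay at 0.02. Slc7a11, named above, supplies the same pathway.

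Fatty acid oxidation and binding had 12 of 20 genes lower, 3 higher and 5 not called, with a median of -0.37. Acadl, the long-chain acyl-CoA dehydrogenase, differed by -1.91 ± 0.091 and Hadh by -1.49 ± 0.10. Hadha (-0.87) and the electron carriers Etfa (-0.86) and Etfb (-0.85) fell, as did Fabp7 (-0.81), a fatty acid carrier of radial cells. Acox3 lay at 0.01.

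Genes of mitochondrial biogenesis, creatine and ketone use ran the other way, with 12 of 23 higher, 7 lower and 4 not called and a median of 0.22. Ppargc1a, a coactivator of mitochondrial genes, rose by 1.51 ± 0.056. Gatm and Gamt, the pair of enzymes that make creatine, rose by 1.21 and 0.67, and mitochondrial creatine kinase Ckmt1 by 0.79. The transcription factors Tfb1m (-0.71) and Nrf1 (-0.64) fell, so the list did not move as a block.

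Metal handling had 7 of 19 genes higher, 4 lower and 8 not called, with a median of 0.07. The shares were 36.8% higher and 21.1% lower, against 28.0% and 35.2% over all tested genes. The metallothioneins Mt1 (-0.69) and Mt2 (-0.77) and the copper transporters Atp7a (-0.67) and Slc31a1 (-0.48) fell, and the transferrin receptor Tfrc (0.47) and the zinc carrier Slc30a4 (0.40) rose.

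Protein quality control was lower at several steps. Of 34 proteasome genes 30 were lower, 1 was higher and 3 were not called, with a median of -0.45, the highest share of lower genes among the 37 lists. The 6 members named by size include 5 ATPases of the base of the regulatory particle, Psmc4 (-0.82), Psmc2 (-0.75), Psmc5 (-0.74), Psmc6 (-0.70) and Psmc1 (-0.65). Psmc4 read 10.76, 10.70 and 10.65 in neurons and 11.56, 11.49 and 11.52 in precursors. The exception was Psmb10, a catalytic subunit of the immunoproteasome, which read 8.53, 8.53 and 8.50 in neurons and 7.67, 7.47 and 7.58 in precursors (0.95 ± 0.054). Psme1, an activator subunit, lay at -0.08.

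Chaperones of the endoplasmic reticulum and the unfolded protein response had 20 of 26 genes lower, 1 higher and 5 not called, with a median of -0.35. Sdf2l1 (-1.15), Creld2 (-0.79) and Dnajb11 (-0.49) act in folding, and Ddit3 (-0.85), the factor CHOP, and Chac1 (-0.75) belong to the stress arm. Syvn1 lay at -0.03. The single higher gene, Xbp1 (0.13), lost its call without neuron replicate 1 or 3 or precursor replicate 2 or 3. Cytosolic and mitochondrial chaperones had 14 of 28 lower, 5 higher and 9 not called, with a median of -0.11. Cryab, a small heat shock protein, rose from 6.94, 7.02 and 7.02 in precursors to 9.19, 9.38 and 8.81 in neurons (2.13 ± 0.12), and inducible Hspa1b by 1.59 ± 0.12. Dnajc6, the auxilin that uncoats vesicles, rose by 0.70. Mitochondrial Hspa9 (-0.92), Bag3 (-0.87) and the chaperonin subunit Cct3 (-0.56) fell, and Hspb1 lay at 0.01.

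The lysosome and autophagy were split. Of 32 lysosomal genes 10 were higher, 9 lower and 13 not called (median -0.01). Ids, which degrades heparan and dermatan sulphate (1.42), Gaa (0.84) and Ctsf (0.79) rose. Cd63 (-1.23), a membrane tetraspanin, Asah1 (-0.81) and Tpp1 (-0.76) fell, and Sgsh lay at 0.03. Of 28 autophagy genes 9 were higher, 8 lower and 11 not called (median 0.00). The shares higher, 31.25% for the lysosome and 32.1% for autophagy, were near the 28.0% over all tested genes. The shares lower were 28.1% and 28.6%, against 35.2%. Map1lc3a (0.87), a marker protein of autophagosomes, Ulk2 (0.78), Gabarapl1 (0.70) and Atg9a (0.67) rose, Nbr1 (-0.63) and Atg3 (-0.50) fell, and Pik3c3 lay at -0.00. The vacuolar proton pump, which acidifies lysosomes and synaptic vesicles, was higher in 11 of 17 subunits, lower in 3 and not called in 3, with a median of 0.39. Its catalytic subunit Atp6v1a rose by 0.69 ± 0.039 and the accessory subunit Atp6ap1 by 0.63 ± 0.045, while Atp6v1h lay at -0.02.

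Cell death genes were mostly not called. Of 24 genes of the apoptosis machinery 9 were lower, 1 higher and 14 not called (median -0.08). Casp6, an effector caspase, read 7.38, 7.48 and 7.45 in neurons and 9.02, 8.92 and 9.07 in precursors (-1.56 ± 0.051). Hrk, a BH3-only protein of neurons, was the higher one (0.79 ± 0.064); 2 genes were higher without neuron replicate 2 or precursor replicate 1, and 3 without neuron replicate 3. Diablo (-0.77), Casp2 (-0.75), Aifm1 (-0.51) and Bcl2 (-0.48) fell, and Bad lay at 0.00. Of 17 genes of the p53 response 6 were lower, 3 higher and 8 not called (median -0.07). The shares lower, 37.5% for apoptosis and 35.3% for p53, were near the 35.2% over all tested genes. The shares higher were 4.17% and 17.6%, against 28.0%. Sesn2 (-1.22), Trp53inp1 (-1.22), Btg2 (-0.96) and Rps27l (-0.72) fell, the cell cycle inhibitor Cdkn1a (0.38) and Plk2 (0.42) rose, and Mdm4 lay at -0.01.

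Hedgehog signals are received at the primary cilium, where Ptch1 holds Smo in check until the ligand, helped by the co-receptors Cdon, Boc and Gas1, binds it and Gli factors are freed. Of 34 tested genes of cilium and pathway 14 were lower, 8 higher and 12 not called, with a median of -0.04. The shares, 41.2% lower and 23.5% higher, were near the 35.2% and 28.0% over all tested genes. The list's 6 largest changes were all falls in proteins that receive or carry the signal. Gli3 read 7.35, 7.65 and 7.21 in neurons and 10.29, 10.21 and 10.17 in precursors (-2.82 ± 0.10), and Gli2 read 7.47, 7.34 and 7.28 in neurons and 8.90, 8.91 and 8.79 in precursors (-1.50 ± 0.062). Cdon fell by 1.89, Gas1 by 1.85, Boc by 1.68 and Smo by 1.52, with no overlap between groups in any of them. The inhibitor Sufu (-0.78) and the receptor Ptch1 (-0.31), itself a target of the pathway, fell by less. The ligand Shh, the target Gli1 and the antagonist Hhip were too dim to test. Intraflagellar transport and cilium gate genes stayed nearer 0, between -0.66 for Ift74 and 0.52 for Bbs9, with Ift81 at 0.00.

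Hippo signalling holds the coactivators YAP and TAZ out of the nucleus, where they act with TEAD factors. Of 24 tested genes 16 were lower, 3 higher and 5 not called, with a median of -0.26; under cyclic loess scaling 5 were higher. Tead2 read 7.43, 7.50 and 7.25 in neurons and 9.97, 9.96 and 9.92 in precursors (-2.56 ± 0.063). Wwtr1, the gene of TAZ, fell by 1.10, Yap1 by 0.82 and the scaffold Ajuba by 1.20. Fat4, a giant protocadherin, rose by 0.89. Ccn1, a secreted protein often used as a readout of YAP, also rose (9.52, 9.75 and 9.40 in neurons and 8.66, 8.57 and 8.69 in precursors), opposite in sign to the coactivators. Fat1 lay at -0.02.

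Ras and MAP kinases carry growth factor signals, and many of their inhibitors are themselves induced by the signal. Of 31 genes 14 were lower, 8 higher and 9 not called (median 0.01), and under cyclic loess scaling 14 were higher. Among inhibitors of the signal, the phosphatases Dusp4 and Dusp16 fell by 1.56 and 1.34 and the sprouty gene Spry1 by 1.25, and with them fell Dusp6 (-0.80), Spry4 (-0.79) and Spred1 (-0.78). Etv4, Etv5 and Etv1, transcription factors that fibroblast growth factors induce, differed by -0.93, -0.83 and -0.70. Other inhibitors rose, namely Dusp3 (0.91) and Spry3 (0.91), and Spred2 lay at 0.01. Among exchange factors that calcium or diacylglycerol switches on, Rasgrf2 read 8.40, 8.78 and 8.49 in neurons and 5.80, 5.52 and 5.39 in precursors (2.98 ± 0.12). Its precursor arrays lay below the array medians, so Rasgrf2 was tested only because other groups were brighter. Rasgrf1 rose by 1.41 and Rasgrp2 by 1.35, whereas Rasgrp1 was not called (0.16).

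**Figure D4:**
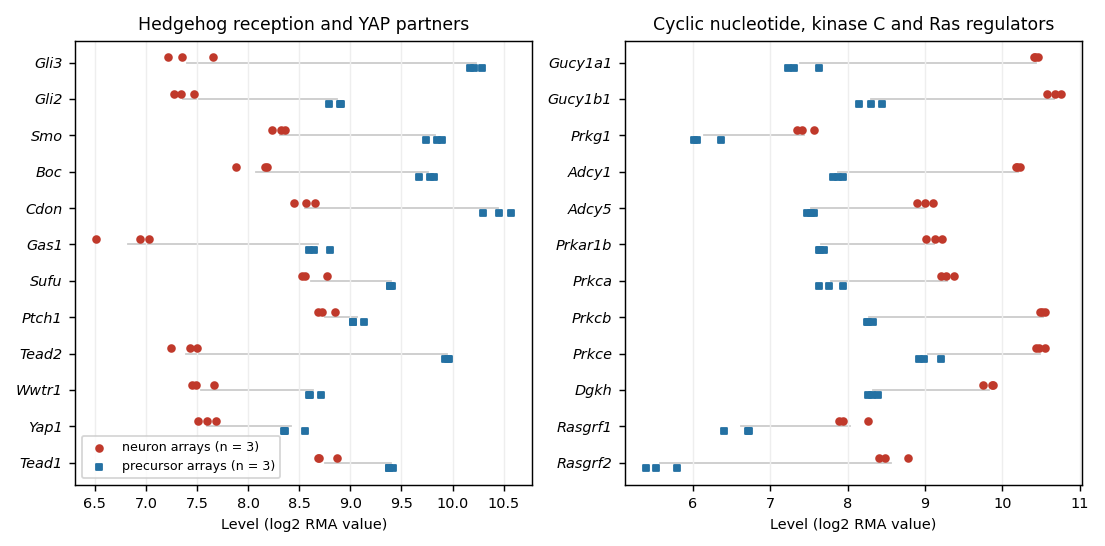
Levels (log2 RMA values, horizontal axis) of genes of hedgehog reception and YAP partners (left) and of cyclic nucleotide, protein kinase C and Ras signalling (right), with 1 circle per neuron array and 1 square per precursor array. Every gene on the left is lower in neurons, from -0.31 for Ptch1 to -2.82 for Gli3, and every gene on the right is higher, up to 3.04 for Gucy1a1; genes were chosen with these values known.

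The list with the highest median was cyclic nucleotide signalling, in which cyclic AMP and cyclic GMP carry signals from receptors and nitric oxide to kinases. Of 34 genes 25 were higher in neurons, 5 lower and 4 not called, with a median of 0.70. The 2 subunits of the nitric oxide receptor, soluble guanylate cyclase, rose together. Gucy1a1 read 10.46, 10.43 and 10.41 in neurons and 7.63, 7.31 and 7.23 in precursors (3.04 ± 0.089), and Gucy1b1 read 10.76, 10.68 and 10.57 in neurons and 8.30, 8.15 and 8.44 in precursors (2.37 ± 0.075). Prkg1, the kinase that cyclic GMP switches on, read 7.35, 7.41 and 7.56 in neurons and 6.01, 6.36 and 6.05 in precursors (1.30 ± 0.10). Its precursor arrays too lay below the array medians, so Prkg1 was tested only because other groups were brighter. On the cyclic AMP side the calcium-stimulated cyclase Adcy1 read 10.19, 10.22 and 10.17 in neurons and 7.94, 7.81 and 7.88 in precursors (2.32 ± 0.047), Adcy5 rose by 1.48, and the regulatory kinase subunit Prkar1b by 1.46. Phosphodiesterases, which end the signal, were split, with Pde10a at 1.13 and Pde3b at -0.75, and Pde9a lay at -0.00.

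Phosphoinositide, diacylglycerol and protein kinase C signalling had 15 of 30 genes higher, 11 lower and 4 not called, with a median of 0.19. The kinases led: Prkcb read 10.51, 10.55 and 10.49 in neurons and 8.33, 8.25 and 8.27 in precursors (2.24 ± 0.041), Prkca rose by 1.50, Prkce by 1.44 and Prkch by 1.09. Dgkh, a kinase that removes diacylglycerol, rose by 1.51 and phospholipase Plcb1 by 1.07. Dgka lay at -0.00.

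Receptors for serotonin, dopamine, histamine and acetylcholine were often higher: 14 of 18 tested, with 3 lower, 1 not called and a median of 0.56. A further 14 on the list were too dim to test, and with no filter 23 were called higher. The serotonin receptor Htr1b rose by 1.31 ± 0.087, and the muscarinic receptors Chrm2 (1.21), Chrm3 (0.93) and Chrm1 (0.78) rose. Chrna3 and Chrnb4, the nicotinic subunits of autonomic ganglia, fell by 1.75 and 0.83. Drd3 lay at -0.01.

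Lipid signals at the surface were mixed. Of 26 genes of lysophospholipid, endocannabinoid and purine signalling 11 were higher, 10 lower and 5 not called (median 0.04). The neuronal membrane proteins Plppr5 (11.07, 11.08 and 10.89 in neurons and 8.02, 8.08 and 7.85 in precursors), Plppr4 (2.49) and Plppr2 (1.25) rose, and Plpp3, a true lipid phosphatase of their family, fell by 1.30. Dagla and Faah, which make and degrade endocannabinoids, rose by 1.09 and 1.09, and Sphk1 lay at 0.02. In lipoprotein and cholesterol transport 15 of 22 genes were higher, 4 lower and 3 not called (median 0.24). Cyp46a1, which turns brain cholesterol into a form that can leave, rose by 1.89 ± 0.074, the exporter Abcg4 by 1.22 and the receptor Lrp1b by 0.88. The sortilin relatives were opposed, with Sorcs2 at 1.20 and Sorcs1 at -1.49, and Lrp4, a receptor known from the neuromuscular junction, fell by 1.86. Vldlr lay at -0.07.

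Among nuclear receptors and the retinoid and thyroid hormone pathways, 12 of 26 were higher, 5 lower and 9 not called (median 0.10), and 3 were lower without precursor replicate 3. The retinoid partner Rxrg rose by 1.68 ± 0.10, the thyroid hormone receptor Thrb by 1.62 ± 0.092, and Nr2f2 and Rorb, factors of cortical areas, interneurons and layers, by 1.19 and 1.00. Nr2e1, or Tlx, a receptor of neural stem cells, fell by 1.20 and the retinoic acid binding protein Crabp2 by 1.04. Cyp26b1 lay at 0.01. Of 16 clock genes 7 were higher, 1 lower and 8 not called (median 0.08), and 4 were higher without neuron replicate 3 or precursor replicate 2 or 3. The activator Npas2 rose by 1.22, Per1 by 1.16, Nfil3 by 0.88 and Cry2 by 0.61. The only gene called lower was Ciart (-0.39), and 3 were lower without neuron replicate 2 or precursor replicate 2. Csnk1e lay at -0.01.

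The sugars and matrix of the cell surface changed widely. In sialic acid and ganglioside synthesis 15 of 25 genes were higher, 2 lower and 8 not called, with a median of 0.24, and 1 was lower without neuron replicate 1 or precursor replicate 3. The sialyltransferases St6gal2 (1.73 ± 0.065) and St6galnac5 (1.62 ± 0.052) rose most. B4galnt1, which opens the path to complex gangliosides, rose by 1.35, and St8sia4, which makes polysialic acid on NCAM, by 0.91. St6galnac6 (0.97) and St8sia3 (0.82) also rose, and Neu4 lay at 0.04.

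Proteoglycans and the hyaluronan matrix had 16 of 32 genes higher, 9 lower and 7 not called (median 0.27). The testicans Spock3 and Spock1 rose by 2.42 ± 0.064 and 2.36 ± 0.077, and Tnr, tenascin R, a component of perineuronal nets, by 2.31 ± 0.068. The heparan sulphate sulphotransferases Hs6st3 (1.79) and Hs3st2 (1.62) and the neuronal proteoglycan Cspg5 (1.58) rose, while Ndst3 lay at -0.05. Of 27 metalloproteases and their inhibitors 12 were higher, 10 lower and 5 not called (median 0.15). Mmp14, a membrane protease that activates other metalloproteases, fell by 2.09, Adamts9 by 2.01 and Adamts6 by 1.47. The membrane proteases Mmp24 (1.30) and Mmp16 (1.19) and the inhibitor Timp2 (1.55) rose, and Adam9 lay at 0.01.

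Cytoskeletal genes were split between actin and the spectrin skeleton. Of 37 genes of actin filaments and contraction 22 were lower, 6 higher and 9 not called (median -0.24). Ezr and Msn, the membrane linkers ezrin and moesin, fell: Ezr read 8.06 ± 0.17 in neurons and 10.07 ± 0.061 in precursors (mean ± SD, n = 3 each), with no overlap (-2.00 ± 0.08), and Msn differed by -1.56. Tagln2 (-1.56), Iqgap2 (-1.31) and the filamin Flnc (-1.12) fell, while Tagln, a smooth muscle protein, rose by 0.92, and Pfn2 lay at -0.02. Of 19 genes of the spectrin and ankyrin skeleton, which lines axons, 12 were higher, 2 lower and 5 not called, with a median of 0.53. Sptb (1.25), a beta spectrin, Dmtn (1.24), Add3 (1.02), Epb41l1 (0.97) and Ank2 (0.85) rose, Epb41l5 fell by 0.80, and Add1 lay at 0.00.

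Rab GTPases direct vesicles between membranes. Of 35 Rab GTPases and 1 effector among them, 22 were higher, 4 lower and 9 not called (median 0.24). Rab3b (1.50) and Rab3a (0.97) act in secretion, and Rab6b (1.39) and Rab15 (1.29), forms enriched in neurons, and Rab9b (1.47) rose with them, whereas Rab8b fell by 0.96 and Rab5c lay at -0.01.

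Cell junction and immune genes were few. Of 7 tested connexins, pannexins and junction adaptors 4 were higher, 2 lower and 1 not called (median 0.15), and 2 were higher without neuron replicate 1 or precursor replicate 2. Gja1, connexin 43, which couples radial precursors, differed by -1.18 ± 0.13. Panx2 rose by 0.61, and Gja5 lay at -0.08. Of 12 genes of complement and antigen presentation 4 were higher, 0 lower and 8 not called (median 0.10), and 13 more were too dim to test. Without neuron replicate 1 or 2, precursor replicate 1 or co-culture replicate 1 or 2, 1 gene was lower. Cd47, a surface signal that restrains engulfment by microglia, rose by 1.71 ± 0.056 and the complement regulator Cd46 by 0.68 ± 0.094, and B2m lay at -0.02.

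Within many of these lists, some members of one gene family moved in opposite directions, and 17 such pairs were picked out after their values were seen. Not all are close relatives, as with Hdac2 and Hdac9 or Rab8b and Rab3b. Pairs that moved the same way were not counted, and 63.1% of all tested genes were called. In the proton pump such a pair of forms was picked for each of 3 subunits. Atp6v0e fell by 0.53 and Atp6v0e2 rose by 0.99, Atp6v1g1 fell by 0.31 and Atp6v1g2 rose by 0.98, and Atp6v0a2 fell by 0.57 and Atp6v0a1 rose by 0.82. The second of each pair is the form enriched in brain. Pik3r1 and Pik3r3, regulatory subunits of PI3 kinase, differed by 1.06 and -0.79. Cpt1c, the brain form of carnitine palmitoyltransferase, differed by 0.32 and Cpt1a, the liver form, by -0.41. The talins, which link integrins to actin, differed by -0.51 for Tln1 and 0.36 for Tln2. Dock1, an exchange factor for Rac, read 6.41, 6.61 and 6.39 in neurons and 8.84, 8.93 and 8.97 in precursors (-2.44 ± 0.073). Its relative Dock3, enriched in neurons, read 10.65, 10.69 and 10.71 in neurons and 9.33, 9.44 and 9.36 in precursors (1.31 ± 0.051). All genes of these pairs were called, and the groups overlapped for only 1 of them, Tpm1 (0.14). Tpm1 lost its call without neuron replicate 2 or 3, precursor replicate 1 or 2 or any co-culture array, and Cpt1a without neuron replicate 1 or 3 or precursor replicate 1 or 3. Levels of different genes cannot be compared on the array, so the pairs show opposite changes and not which form is more abundant.

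**Figure D5:**
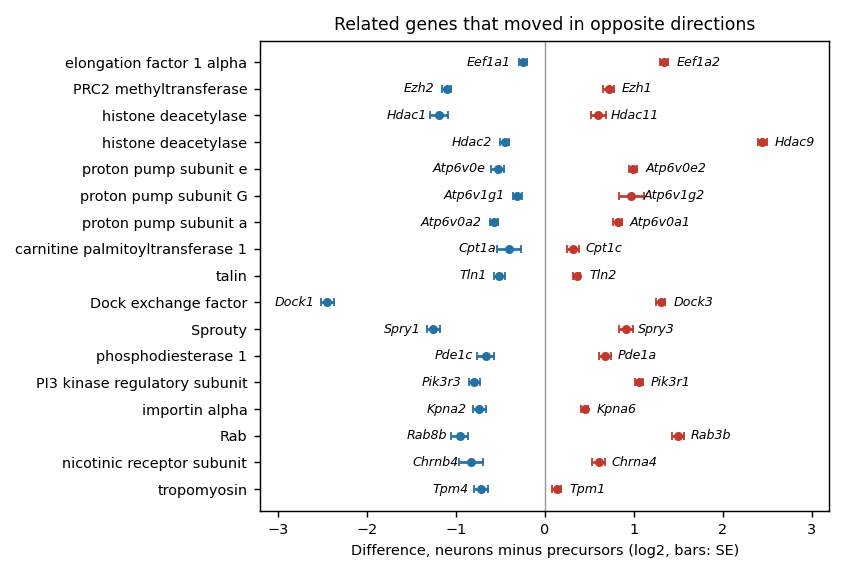
Differences, neurons minus precursors on the log2 scale (horizontal axis), with bars of 1 standard error, for 17 pairs of related genes chosen because they moved in opposite directions. The widest span is between Dock1 at -2.44 and Dock3 at 1.31.

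Promoter sequences were searched for motifs on both strands, in windows of 300 bases from RefSeq with GRCm38.p6 that run from 250 bases before to 50 after each gene's start. The motif CCAAT was held by 48.9% of promoters of genes at least 2-fold lower in neurons, by 42.0% once cell cycle and histone genes were left out, by 32.9% of promoters of genes at least 2-fold higher, and by 37.2% over all tested genes with a listed promoter (10178 of 13012). Over all 32851 promoters of the table it was held by 37.4%. The motif TTTCCCGC was held by 4.89%, 3.14%, 0.40% and 1.92% of the same sets, and the motif TTTGGCGC by 3.14%, 1.45%, 0.27% and 0.89%, and both are known from promoters that E2F factors regulate. The motif TGACGTCA, the cyclic AMP response element, was held by 3.84%, 3.62%, 2.39% and 2.92%. In the list of the unfolded protein response, 82.6% of promoters held CCAAT, and 34.8% held the full stress element of chaperone genes, in which CCAAT is followed at a fixed spacing by CCACG, against 0.12% over all tested genes. The 8 holders, among them Hspa5, Calr, Hsp90b1 and Creld2, had 6 lower and 0 higher members (median -0.29), and the 15 others had 11 lower and 1 higher (median -0.35). In the Hippo list 52.0% of promoters held GGAATG, the core bound by TEAD factors, against 12.1% over all tested genes. Its 11 holders had 7 lower and 2 higher members, and its 9 others 6 lower and 1 higher. In the lysosome list 25.0% held GTCACGTG, known from genes that TFEB regulates, against 3.81%. Its 8 holders had 0 lower and 2 higher members, and its 21 others 8 lower and 7 higher. In the list of oxidative defence 23.3% held TGACNNNGC, the core of the element that NRF2 binds, against 13.9%, but the share was 31.3% in the lysosome list and 26.1% in the clock list. The motif TGATGCAA, known from ATF4 targets, was held by 8.70% of promoters of the unfolded protein response, 2 in number, against 0.58%.

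Shown, as examples of 3 of these motifs, are the 250 bases before the start of 3 genes that were lower in neurons, in capitals where the motif matches. Creld2 (chr15:88819396-88819645, plus strand) holds the chaperone stress element on the reverse strand, Wwtr1 (chr3:57575911-57576160, minus strand, the first of its listed starts) holds GGAATG, and Ezh2 (chr6:47595031-47595280, minus strand) holds 3 matches to CCAAT. A match is a description of the letters and not of a bound site.
Creld2: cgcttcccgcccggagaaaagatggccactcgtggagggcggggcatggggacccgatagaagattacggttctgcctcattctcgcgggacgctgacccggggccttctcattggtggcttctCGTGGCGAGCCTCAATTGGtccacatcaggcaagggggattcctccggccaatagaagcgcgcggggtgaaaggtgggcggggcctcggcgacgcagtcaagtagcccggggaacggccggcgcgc
Wwtr1: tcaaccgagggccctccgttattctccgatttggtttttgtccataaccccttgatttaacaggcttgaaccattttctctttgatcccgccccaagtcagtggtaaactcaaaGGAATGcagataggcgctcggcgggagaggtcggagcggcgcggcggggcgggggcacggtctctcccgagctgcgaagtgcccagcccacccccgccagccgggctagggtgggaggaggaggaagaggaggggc
Ezh2: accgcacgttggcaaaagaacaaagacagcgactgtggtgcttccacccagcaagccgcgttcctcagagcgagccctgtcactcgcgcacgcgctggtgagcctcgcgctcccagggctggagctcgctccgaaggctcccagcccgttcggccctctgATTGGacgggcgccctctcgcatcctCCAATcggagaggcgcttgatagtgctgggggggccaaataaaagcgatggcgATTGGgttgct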

How the data were processed

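Total RNA (100 ng per sample) from 3 cultures of each kind was read on whole-transcript arrays, after amplification with an Ambion kit per the labels' protocols. The values are log2 intensities that the authors normalized with oligo and RMA before they deposited them, per the submitters' processing notes, which give no versions; genome build: not given in the sources used here. RMA corrects background and equalizes the arrays' distributions, so a shift shared by all genes is removed. Array medians were 6.75 to 6.79. Of 41345 probe sets 23521 had 1 gene symbol, 1814 several and 16010 none, and those with several or none were not used. Gene numbers matched 23328 to the RefSeq table, which changed 0 symbols. Each of 22180 genes was represented by its brightest probe set on average, and the 13012 above the array median in at least 3 arrays were tested. Arrays give no read depth, and their number limits the precision.

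All 9 arrays entered 1 limma fit (limma 3.58.1, R 4.3.3) with the 3 groups, so that the co-cultures share in the estimate of the spread, and Benjamini-Hochberg adjustment ran over all tested genes. The fit was tested on simulated data. The members and the gene lists were chosen with earlier results of these data known. Genes named are the 15 largest rises and 15 largest falls with groups that did not overlap, leaving out the usual cell cycle, synapse and histone lists, RNA genes and unnamed gene models; up to 6 called members of each list by size of change, and its tested member nearest 0; the named defining markers; and up to 3 of the brightest of each marker list. Other genes, the small RNAs, the promoters printed and the paired relatives were chosen after their values were seen. No source says whether replicates of different groups were prepared together, and same-numbered neuron and precursor arrays deviated from their group means with correlations of 0.0043, 0.13 and -0.15, so the numbers were not taken to pair them. Alternatives changed the filter, scaling, weights, variance model, probe set rule, block and samples. One gene list is not reported here.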

Additional observations from a re-analysis of the deposited data

How the results depend on the processing

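The counts of genes higher and lower in neurons, overall and at least 2-fold, stayed within 1.5 times their reported values under every alternative run. Counts over all genes were 3637 higher and 4574 lower as reported, 4248 and 4053 under cyclic loess, 4189 and 4081 with arrays centred on the median of tested genes (an alternative chosen after seeing the data), and 3381 to 3696 and 4209 to 4618 with 1 array left out. With the replicate number as a block they were 3717 and 4584, and among named genes H2-K1 lost its call under the block and Olig1 and Folr1 gained one. Cyclic loess moved the median difference of tested genes from -0.02 to 0.01, and higher genes from 44.3% to 51.2% of calls. With the mean of probe sets in place of the brightest, 1 of 8058 calls changed direction. Of 271 called genes named by the rule, 8 lost their call in at least 1 alternative, each in at least 1 fit with an array left out: Gad2, Gjd3, H2-K1, Hlf, Kdr, Olig2, Panx1 and Trib3. Of the called genes named outside it, Nop10, Xbp1, Snord88c, Cpt1a and Tpm1 lost theirs with an array left out, Calr under cyclic loess and Atp6v1g1 with the mean of probe sets. A filter at the 75th percentile tested fewer members and moved 23 list counts by over 1.5 times, against 57 within it. Differences in genes that are dim in a group are bounded by the array's background and may be understated. With 3 arrays a group, no exact permutation test of 1 gene could go below p = 0.10.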

Other observations

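Within each culture, the gene that varied most between arrays was Xist, which is transcribed from the inactive X chromosome of female cells. It read 11.93, 12.03 and 6.91 in neurons and 6.86, 10.97 and 12.43 in precursors, so its difference between the cultures (0.20, limma adjusted p = 0.92) was far smaller than its spread within them. The Y-linked genes Uty, Kdm5d and Eif2s3y were also among the most variable in precursors. Uty read 8.01, 7.92 and 8.63 in neurons and 9.11, 9.20 and 6.87 in precursors, lowest in the precursor array where Xist was highest.

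Precursor replicate 2 was lower than the other two precursor arrays in genes of ventrally born interneurons: Nkx2-1, a factor that specifies them, read 7.79, 6.89 and 7.59 in precursors and 6.89, 6.84 and 7.14 in neurons, and Lhx6, which follows it in migrating cells, read 8.97, 8.07 and 8.67 and 9.30, 9.28 and 9.29. Npy, a peptide of these cells, read 9.74, 8.79 and 9.51 in precursors and 9.98 ± 0.049 (mean ± SD, n = 3) in neurons. Ahcy, which clears the by-product of methylation reactions, stood at 8.92 in neuron replicate 2 and at 7.63 and 7.54 in the other two.

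In the precursors grown on neurons, the mean of 29 of the 30 genes with the largest rises and falls lay between the means of neurons and precursors. The exception was Lilrb4a. For 23 of the 30 it lay closer to precursors. The 7 genes nearer neurons were all among the rises, namely Rgs4, Slc7a8, Gucy1a1, Nr4a3, Plppr5, Npas4 and Chl1. Those cultures hold RNA of both cell types, so mixing alone would place the mean of such widely separated genes between the others. The means are of log2 values, on which a mixture lies nearer the group with the higher level. These counts therefore cannot separate mixing from a response of either cell type, and the shares of the cell types were not measured.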
